A study of Mus musculus with 6 samples.

Results

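A set of 10 genes of the lipid droplet surface and of triglyceride turnover was followed in mouse liver: Plin2, Plin4, Plin5, Cidea, Cideb, Cidec, Mogat1, G0s2, Pnpla2 and Hilpda. They were chosen by gene name from a deposited table of 23036 genes, and all 10 were found there by their symbols. Liver mRNA was sequenced from female mice fed a western diet, rich in fat and sugar, for 20 weeks from 8 weeks of age. Mice with floxed Hkdc1 (flox, HKDC1 fl/fl) were compared with mice in which the floxed gene was deleted specifically in the liver (LKO, HKDC1 LKO). Hkdc1 encodes a hexokinase-like protein (hexokinases phosphorylate glucose), and the comparison asks what its loss in the liver changes in diet-induced steatohepatitis (MASH). All 6 libraries share the diet, and no chow-fed group is described. The sources used here do not name the driver of the deletion, nor do they state that the libraries are of separate mice, so that p-values measure only the spread between these libraries.

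Hepatocytes store surplus fatty acids as triglyceride in lipid droplets. Perilipins coat the droplet and limit the access of lipases, CIDE proteins promote droplet fusion and growth, and adipose triglyceride lipase (encoded by Pnpla2) releases the first fatty acid. G0S2 and HILPDA bind that lipase and inhibit it. In fatty liver the amounts of several of these proteins rise with the stored lipid, and Plin2, Plin4, Cidea, Cidec, Mogat1 and G0s2 are known targets of nuclear receptors of the PPAR family.

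The genotype field of the labels gave 3 flox and 3 LKO libraries, but the title of flox 3 names LKO and the title of LKO 1 names flox. Library names follow the genotype field throughout, and each comparison was made in 3 readings of the labels. These were the groups of the genotype field, the 4 libraries whose labels agree (flox 1, flox 2, LKO 2 and LKO 3), and the groups of the titles. These readings share libraries and are not independent of each other. Hkdc1 itself was at 2.55 and 1.36 CPM (counts scaled to library size) in flox 1 and flox 2, at 0.0647 in flox 3, at 0.594 in LKO 1, and at 0.0602 and 0.253 in LKO 2 and LKO 3. The level in flox 3 thus goes against its genotype field. Total counts were 16166515 to 17366295 per library. The hepatocyte markers Alb (albumin) and Trf (transferrin) were abundant in every library, with Alb at 48893 to 71573 CPM. LKO 2, and to a smaller extent LKO 3, also held transcripts of adrenal cortex and fat: Cyp21a1, the adrenal steroid 21-hydroxylase, reached 693.7 CPM in LKO 2 and 71.3 in LKO 3, against 0.534 or less elsewhere. Results of the 10 genes that rest on LKO 2 are given with and without it.

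Per unit of length, 6 of the 10 genes had a mean level above 10 FPKM (fragments per kilobase of transcript, scaled to library size). Plin2 had the highest mean, 169 FPKM (127 to 228), followed by G0s2 with 103 (58.7 to 191), and their ranges overlapped. Plin5 (25.6 to 47.3) and Pnpla2 (32.7 to 40.7) came next with overlapping ranges. Plin4 (4.43 to 28.0) and Cidec (4.31 to 35.7) overlapped each other too and varied most among the abundant genes. Cideb lay at 6.93 to 8.67 FPKM. The last 3, Hilpda (1.78 to 5.52), Cidea (0.110 to 9.94) and Mogat1 (0.547 to 2.62), overlapped and cannot be ordered beyond their spread. Pnpla2 and Cideb were the steadiest, with 1.42-fold and 1.47-fold between their highest and lowest CPM, while Cidea spanned 84.6-fold.

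**Figure D1:**
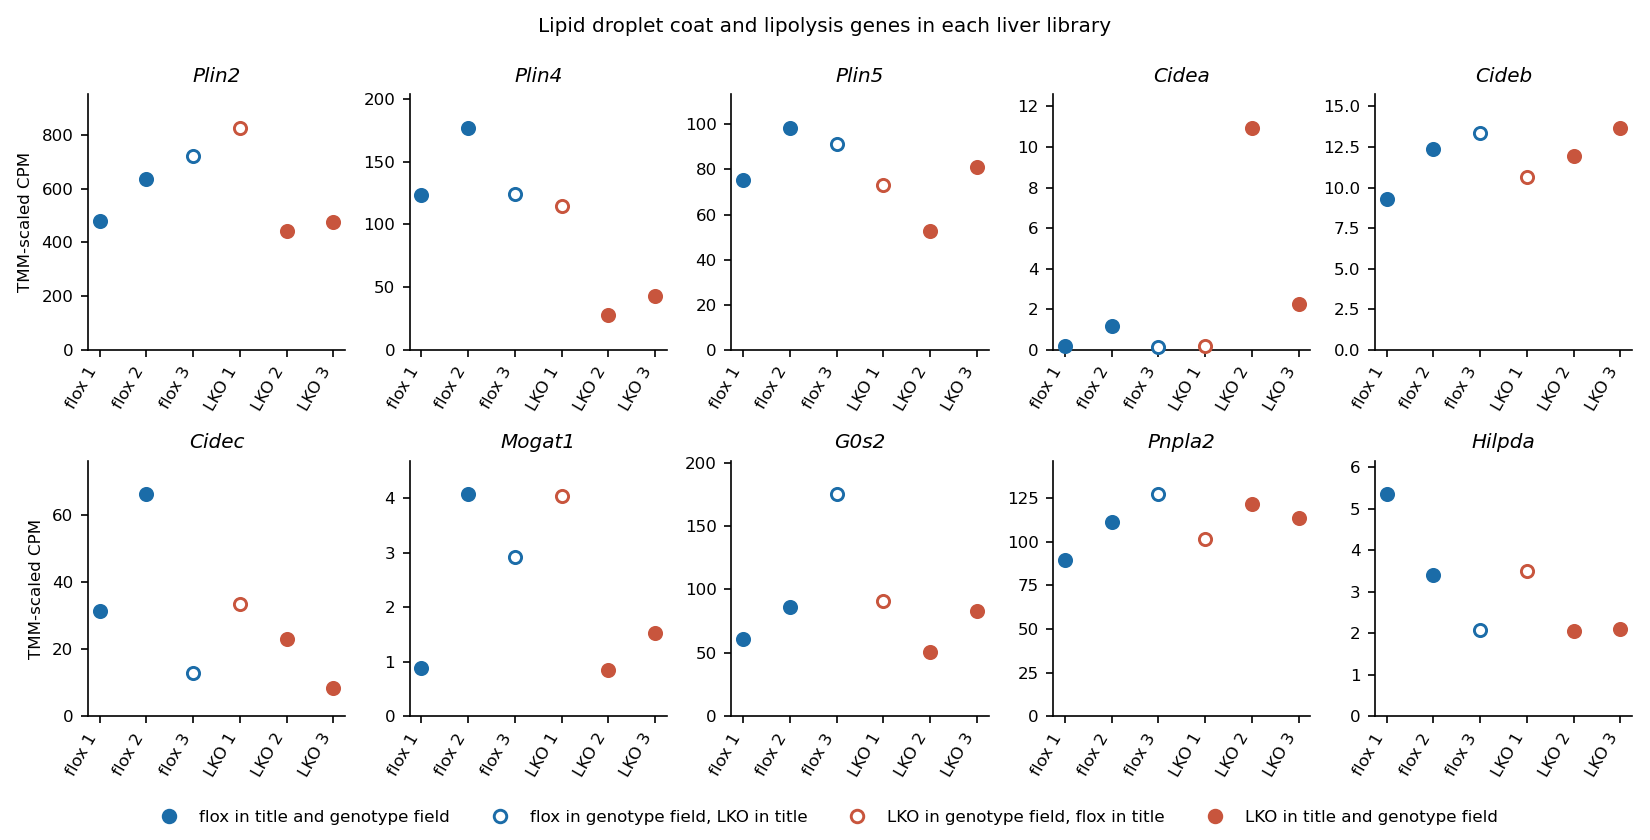
Each panel plots 1 gene, with the 6 libraries on the horizontal axis and TMM-scaled CPM on the vertical axis, which starts at 0. Blue marks flox and red LKO by the genotype field, and open symbols mark the 2 libraries whose title names the other group. Plin4 is at 27.8 and 42.9 CPM in LKO 2 and LKO 3 and at 115 or more in the other 4 libraries.

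The coat gene Plin4 was the member that passed the test, and only in the libraries whose labels agree, where it was 4.23-fold lower in LKO. Plin4 (ENSMUSG00000002831, GRCm39 chromosome 17, 56407591 to 56416803, minus strand) encodes perilipin 4, which coats small and newly formed droplets in adipocytes. Its level was 123 CPM in flox 1 and 177 in flox 2, against 27.8 in LKO 2 and 42.9 in LKO 3. The library labelled flox 3 had 124 CPM and the library labelled LKO 1 had 115, so that these 2 lay beside flox 1 whichever label is followed. The groups of the agreeing libraries did not overlap, with means of 150.1 ± 38.2 and 35.4 ± 10.7 CPM (SD, n = 2 each), a log2 fold change of -2.08 (standard error 0.28) and an edgeR adjusted p of 0.0459. By the genotype field the groups did not overlap either, at 142 ± 30.9 and 61.9 ± 46.6 CPM (SD, n = 3 each), but the gene did not pass (log2 fold change -1.19, standard error 0.48, edgeR adjusted p = 0.554). By the titles the groups overlapped (log2 fold change -1.09, standard error 0.49, edgeR adjusted p = 0.378). In bulk tissue, fewer cells of a type and less RNA per cell cannot be told apart.

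The fall of Plin4 in the agreeing libraries lies close to the threshold. It was lost with upper-quartile factors (edgeR adjusted p = 0.0568), with limma-voom (adjusted p = 0.0533), with a filter at a mean of 1 CPM (edgeR adjusted p = 0.0501), without flox 1 (0.0954) and without flox 2 (0.0956). The log2 fold change was -1.79 without LKO 2, and the gene passed there (edgeR adjusted p = 0.000957), but LKO 3, the LKO library left, also held fat transcripts (Plin1 at 51 counts). Plin4 overlaps Hdgfl2 on the other strand, and the strand setting of the counts is not given. Reads of the pair can then not be told apart, and Hdgfl2 itself was at 37.0 to 44.0 CPM with no order by group.

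Plin5 lies 1797 bases from Plin4 on the same strand and did not pass in any reading. Perilipin 5, which Plin5 (ENSMUSG00000011305, chromosome 17, 56418601 to 56424596) encodes, tethers droplets to mitochondria and binds Pnpla2 protein and its coactivator. Plin5 was at 75.3, 98.5 and 91.5 CPM in flox 1 to 3, while LKO 1 to 3 had 73.2, 52.9 and 81.0 CPM. LKO 2 was the lowest library, and the groups overlapped in all 3 readings. Its log2 fold change was -0.36 (standard error 0.18) by the genotype field, -0.37 (standard error 0.24) in the agreeing libraries and -0.13 (standard error 0.21) by the titles, with edgeR adjusted p of 0.571, 0.509 and 0.833. In FPKM, Plin5 exceeded Plin4 by 1.69-fold to 2.24-fold in flox 1 to 3 and LKO 1, and by 5.79-fold and 5.74-fold in LKO 2 and LKO 3.

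The sequences just upstream of both genes are shown because one neighbour passed in the agreeing libraries and the other did not; the difference between the genes was not tested. They are the 250 bases before the RefSeq start on the gene's own strand, in GRCm38.p6, a build other than that of the table. Capitals mark AGGTCA, the half-site to which PPAR and RXR receptors bind, on either strand (TGACCT on the other). Of 32851 promoter windows of this length, 14.0% hold it.
Plin4, chr17:56109783-56110032, minus strand: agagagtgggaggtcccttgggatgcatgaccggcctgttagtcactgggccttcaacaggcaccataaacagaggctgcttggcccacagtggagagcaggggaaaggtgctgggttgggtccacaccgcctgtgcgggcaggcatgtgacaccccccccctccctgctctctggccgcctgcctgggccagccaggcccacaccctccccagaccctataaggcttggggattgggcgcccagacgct
Plin5, chr17:56117549-56117798, minus strand: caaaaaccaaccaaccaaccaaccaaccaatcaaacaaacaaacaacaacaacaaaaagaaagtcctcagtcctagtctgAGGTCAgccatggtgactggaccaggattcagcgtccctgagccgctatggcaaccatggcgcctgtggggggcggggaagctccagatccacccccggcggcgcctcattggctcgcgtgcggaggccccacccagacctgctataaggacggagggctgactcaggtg
This Plin5 window, one of a pair in the table, holds 1 half-site, which begins 170 bases before the start. The other Plin5 window, not shown, and the Plin4 window hold none. The direct repeat of the half-site with 1 base between its copies (DR1) was in the window of none (0) of the 9 members searched, and in 0.0335% of all windows. Cidea was left out of the search. A match is a description of these letters only.

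Plin2, the main droplet coat gene of hepatocytes, did not pass in any reading. Perilipin 2 covers most droplets of the fatty liver and is stabilised by bound lipid. Plin2 (ENSMUSG00000028494, chromosome 4, 86566623 to 86588297, minus strand) was at 479.8, 637 and 722 CPM in flox 1 to 3, while LKO 1 to 3 had 827, 441 and 476 CPM. LKO 1 was the highest library, and LKO 2 and LKO 3 were the lowest, just under flox 1. Its groups in the agreeing libraries did not overlap (558 ± 111 against 459 ± 24.9 CPM, SD, n = 2 each), but the gap between flox 1 and LKO 3 was small beside the spread within flox. The log2 fold change was -0.28 (standard error 0.21, edgeR adjusted p = 0.558) there, -0.08 (standard error 0.27, 0.932) by the genotype field and -0.24 (standard error 0.25, 0.728) by the titles.

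Because FPKM is per unit of length, the perilipins can be summed. The sum over Plin1 to Plin5 was 244, 282 and 272 FPKM in flox 1 to 3, and 304, 181 and 188 FPKM in LKO 1 to 3. Plin2 made up 63.7% to 75.0% of it in the 6 libraries. FPKM carry no TMM factor, which was 1.138 in flox 1 and 0.9434 in LKO 3. Sums of different libraries are thus not on the CPM scale, where Plin2 was level in flox 1 and LKO 3 (479.8 and 476 CPM). The share of Plin4 was 9.03% and 9.91% in flox 1 and flox 2, 6.80% in flox 3, 5.78% in LKO 1, and 2.45% and 3.39% in LKO 2 and LKO 3. The Plin4 share was thus lowest in LKO 2 and LKO 3, while Plin5 had 11.2% to 19.5% with overlapping groups. Plin3, a perilipin of many tissues that moves to droplets from the cytosol, was outside the 10 genes and was chosen after its values were seen. It was at 85.1, 94.1 and 95.0 CPM in the 3 libraries titled flox and at 70.9, 68.2 and 66.2 in those titled LKO, and did not pass (log2 fold change -0.42, standard error 0.10, edgeR adjusted p = 0.139 by the titles).

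**Figure D2:**
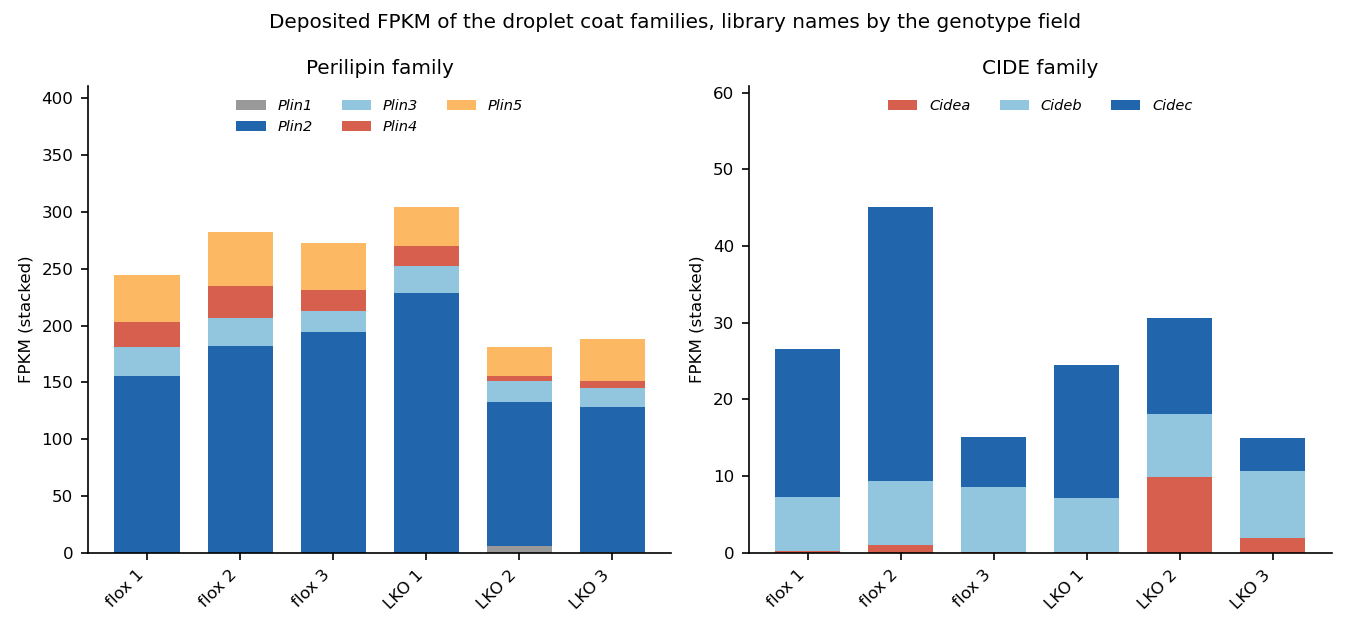
Stacked bars give the deposited FPKM of the perilipins (left) and of the CIDE genes (right) in each library, named by the genotype field. LKO 2 and LKO 3 have the smallest perilipin sums, 181 and 188 FPKM, and Cidea makes up 32.5% of the CIDE sum in LKO 2. The sums carry no TMM factor.

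Among the CIDE genes, Cidec was lower in the libraries titled LKO, Cideb was steady, and Cidea was high in LKO 2 and LKO 3, and no CIDE gene passed the test. Cidec (ENSMUSG00000030278, chromosome 6, 113401595 to 113412721, minus strand), also called Fsp27, drives the fusion of droplets in adipocytes and in fatty liver. It was at 31.3 and 66.2 CPM in flox 1 and flox 2 and at 33.4 in LKO 1, the 3 libraries titled flox. It was at 12.9 CPM in flox 3, 23.0 in LKO 2 and 8.49 in LKO 3, the 3 titled LKO. By the titles the groups did not overlap, at 43.6 ± 19.5 and 14.8 ± 7.44 CPM (SD, n = 3 each), with a log2 fold change of -1.56 (standard error 0.40, edgeR adjusted p = 0.15, DESeq2 adjusted p = 0.00194). In the agreeing libraries the log2 fold change was -1.62 (standard error 0.52, edgeR adjusted p = 0.214). By the genotype field the groups overlapped (-0.76, standard error 0.63, edgeR adjusted p = 0.696).

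Adipocytes make much Cidec, and the value of LKO 2 has to be read beside its fat transcripts. Without LKO 2 the agreeing libraries gave a log2 fold change of -2.51 for Cidec, which passed (edgeR adjusted p = 0.000191), with LKO 3 as the lone LKO library, assumed to vary like flox and itself not free of fat transcripts. By the titles without LKO 2 it was -2.03 and did not pass (edgeR adjusted p = 0.115). Without flox 2, the highest library, the log2 fold change in the agreeing libraries was -0.99 (edgeR adjusted p = 0.43).

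Cidea (ENSMUSG00000024526, chromosome 18, 67476674 to 67500855, plus strand) is typical of brown fat and is also induced in steatotic liver. It had 4, 19 and 2 counts in flox 1 to 3 and 3, 182 and 36 counts in LKO 1 to 3 (95% exact Poisson intervals 11.4 to 29.7 in flox 2, 157 to 210.4 in LKO 2 and 25.2 to 49.8 in LKO 3, counting error only). These are 10.95 CPM in LKO 2, 2.28 in LKO 3, 1.17 in flox 2 and 0.129 to 0.208 in the rest. The groups did not overlap in the agreeing libraries, and the log2 fold change was 3.30 (standard error 0.98, edgeR adjusted p = 0.189, DESeq2 adjusted p = 0.00615). It was 3.15 (standard error 1.32) by the genotype field and 3.12 (standard error 1.26) by the titles, with edgeR adjusted p of 0.554 and 0.324. Without LKO 2 the log2 fold change in the agreeing libraries was 1.76, and without LKO 3 it was 4.03. Each of these fits leaves a lone LKO library, assumed to vary like flox. Without LKO 3 that library is LKO 2, which held the most fat and adrenal transcripts.

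Some fat markers were high in the libraries with high Cidea, and others were not. Of 10 white adipocyte markers, 0 were at a count of 0 in LKO 2 and 1 in LKO 3, against 2 to 5 in the other libraries. Plin1, the adipocyte perilipin, and the hormone gene Adipoq were at 0 counts in flox 1, flox 2 and LKO 1. The summed level of this list was 825 to 1564 CPM in flox and 1486 to 1717 in LKO, and most of it came from Car3 and Thrsp, which hepatocytes also express. Of 10 brown adipocyte markers 1 was at 0 in LKO 2, 2 in LKO 3 and 2 to 4 in the others. Their summed level was 63.0 to 65.1 CPM in flox and 51.4, 139 and 69.7 CPM in LKO 1 to 3, with the highest means for Slc27a1 and Ppargc1a, which the liver also expresses. In LKO 2 the order was Slc27a1 (53.4 CPM), Ucp1 (36.2), Adrb3 (20.0) and Ppargc1a (9.63, its lowest level in any library). Thrsp was at 356 and 404 CPM in LKO 2 and LKO 3, below flox 2, flox 3 and LKO 1 (465 to 606) but above flox 1 (314). Fabp4 was highest in LKO 2 (96.0 CPM), while flox 1 (48.4) exceeded LKO 3 (42.8). Zic1 had 1 count in flox 2 and 0 in all other libraries. Ucp1, the brown fat uncoupling protein gene, reached 36.2 CPM in LKO 2 and 4.18 in LKO 3, against 0.237 or less elsewhere. The 10 adrenal cortex markers summed to 81.7 to 118 CPM in flox 1 to 3 and LKO 1, 2697 in LKO 2 and 373 in LKO 3. Cyp21a1 and Star had the highest means over the 6 libraries, but outside LKO 2 the highest was Fdx1, at 75.1 to 109.6 CPM, which the liver also expresses, and Star was at 2.04 to 4.53 CPM outside LKO 2 and LKO 3. The level in LKO 3 was 10.3% of that in LKO 2 for Cyp21a1, 11.0% for Adipoq, 11.5% for Ucp1, 12.4% for Plin1 and 12.8% for the white adipocyte marker Cfd. These genes were picked from the lists. For Cidea the share was 20.8%, and for Cidec 36.9%. Fat markers that the other libraries also held fell less from LKO 2 to LKO 3, or rose. Lipe was at 46.0 and 20.3 CPM in LKO 2 and LKO 3, Adrb3 at 20.0 and 9.94, and Thrsp at 356 and 404. Flox 2 had 19 counts of Cidea with 0 counts of Plin1. The part of fat RNA in the Cidea and Cidec values was not tested.

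**Figure D3:**
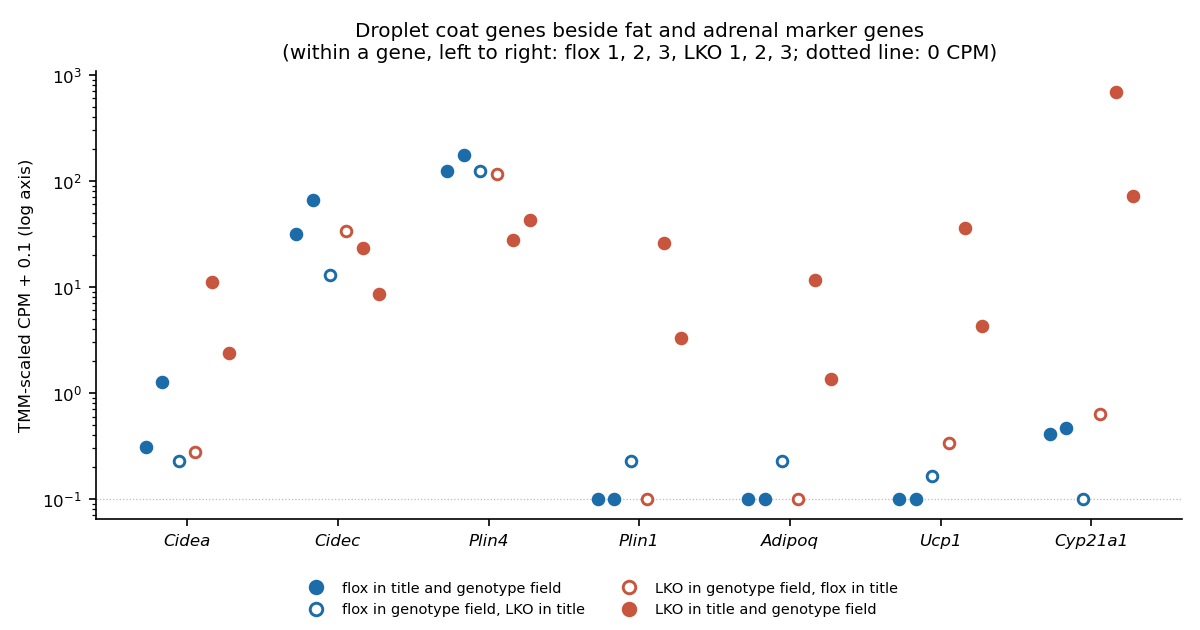
TMM-scaled CPM plus 0.1 is plotted on a log axis for Cidea, Cidec, Plin4 and for marker genes of fat (Plin1, Adipoq, Ucp1) and adrenal cortex (Cyp21a1), with 1 symbol per library and colours as for the plot of the 10 genes. LKO 2 is the highest library for Cidea and for the 4 marker genes and the lowest for Plin4, at 27.8 CPM.

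Cideb (ENSMUSG00000022219, chromosome 14, 55991507 to 55995915, minus strand), the CIDE gene of hepatocytes, which also helps to load lipid onto secreted lipoproteins, was at 9.30, 12.3 and 13.3 CPM in flox 1 to 3, while LKO 1 to 3 had 10.6, 11.9 and 13.7 CPM. The groups overlapped in all 3 readings. The log2 fold changes were 0.05 (standard error 0.18), 0.25 (standard error 0.22) and 0.27 (standard error 0.15) by the genotype field, in the agreeing libraries and by the titles, with edgeR adjusted p of 0.928, 0.626 and 0.488. Cideb overlaps Nop9 on the other strand, which was at 18.2 to 26.6 CPM, so its counts are uncertain to that extent. Cidec made up 72.4%, 79.2% and 71.2% of the summed CIDE FPKM in the 3 libraries titled flox (flox 1, flox 2 and LKO 1) and 43.3%, 41.0% and 28.9% in the 3 titled LKO (flox 3, LKO 2 and LKO 3).

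Mogat1 (ENSMUSG00000012187, chromosome 1, 78487628 to 78514810, plus strand), a monoacylglycerol acyltransferase that makes diacylglycerol for triglyceride, was scarce. It had 17, 66 and 45 counts in flox 1 to 3, while LKO 1 to 3 had 68, 14 and 24, or 0.883, 4.07, 2.91, 4.04, 0.843 and 1.52 CPM. Flox 1 was level with LKO 2, the 2 lowest libraries, and the groups overlapped in all 3 readings. Its log2 fold changes were -0.29 (standard error 0.69), -1.05 (standard error 0.77) and -0.76 (standard error 0.63), in the order used for Cideb, and did not pass (edgeR adjusted p 0.898, 0.553 and 0.651). The direction in the agreeing libraries turned to 0.41 without flox 2. The genes that overlap Mogat1 and Cidea on the other strand, BC035947 and B430212C06Rik, reached 0.534 and 0.178 CPM at most.

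On the lipolysis side, the lipase gene Pnpla2 was steady. Pnpla2 (ENSMUSG00000025509, chromosome 7, 141035111 to 141040656, plus strand) was at 89.4, 111 and 127 CPM in flox 1 to 3, while LKO 1 to 3 had 102, 121 and 114 CPM. In the libraries titled LKO it lay at 114 to 127 CPM, just above the 89.4 to 111 of those titled flox. The log2 fold change by the titles was 0.26 (standard error 0.12, edgeR adjusted p = 0.386). It was 0.23 (standard error 0.17, 0.536) in the agreeing libraries and by the genotype field 0.04 (standard error 0.15, 0.936).

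G0s2, the inhibitor of the lipase, was highest in 1 library and otherwise without order. G0s2 (ENSMUSG00000009633, chromosome 1, 192954469 to 192955525, minus strand) was at 61.0, 86.5 and 175 CPM in flox 1 to 3, while LKO 1 to 3 had 91.0, 50.6 and 82.9 CPM. The library labelled flox 3, titled LKO, stood above the rest, so that the sign of the difference depended on its label. The log2 fold change was -0.52 (standard error 0.39) by the genotype field, 0.37 (standard error 0.40) by the titles and -0.14 (standard error 0.28) in the agreeing libraries, with edgeR adjusted p of 0.668, 0.741 and 0.853. In FPKM the ratio of G0s2 to Pnpla2 was 2.37, 2.70 and 4.78 in flox 1 to 3, while LKO 1 to 3 had ratios of 3.10, 1.44 and 2.53. G0s2 overlaps Lamb3 on the other strand, which was at 7.17 to 10.7 CPM.

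Hilpda, induced by hypoxia and by fatty acids, was lower in each library titled LKO than in each titled flox. Its protein also inhibits the lipase, in hepatocytes and in lipid-laden macrophages. Hilpda (ENSMUSG00000043421, chromosome 6, 29272487 to 29275445, plus strand) had 103, 55 and 59 counts in flox 1, flox 2 and LKO 1, and 32, 34 and 33 counts in flox 3, LKO 2 and LKO 3. These were 5.35, 3.39 and 3.50 CPM against 2.07, 2.05 and 2.09 CPM, with no overlap. Grouped by title, Hilpda averaged 4.08 ± 1.10 and 2.07 ± 0.0221 CPM (SD, n = 3 each), with a log2 fold change of -0.98 (standard error 0.27) that did not pass (edgeR adjusted p = 0.173, DESeq2 adjusted p = 0.0843). With the agreeing libraries alone it was -1.07 (standard error 0.37, edgeR adjusted p = 0.232), and by the genotype field -0.50 (standard error 0.41, edgeR adjusted p = 0.685), with overlapping groups.

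Of 10 macrophage markers some were ordered like Hilpda and some the other way. Trem2 and Gpnmb, both of lipid-laden macrophages and chosen after their values were seen, were at 50.5 and 192 CPM in flox 1, 24.7 and 86.8 in flox 2, and 17.1 and 45.7 in LKO 1. In flox 3, LKO 2 and LKO 3, Trem2 was at 2.77 to 5.00 CPM and Gpnmb at 2.89 to 14.2. Trem2 passed in the agreeing libraries (log2 fold change -3.27, standard error 0.43, edgeR adjusted p = 0.0455) and by the titles (-2.91, standard error 0.42, edgeR adjusted p = 0.0438), and the other 9 markers of the list did not. Marco and Timd4 were higher in LKO, with separated groups in both readings, and did not pass. Their log2 fold changes in the agreeing libraries were 3.55 and 2.36 (edgeR adjusted p = 0.169 and 0.159). The size of both depends on LKO 2, the library with the most fat and adrenal transcripts. Marco reached 98.5 CPM there, while LKO 3 had 13.6, flox 3 had 10.5 and the libraries titled flox had 2.26 to 7.17. For Timd4 these levels were 27.9, 7.09, 8.74 and 3.21 to 5.22 CPM, in the same order. In the agreeing libraries 5 of the 10 markers had a fold change above 0 and 5 below, and DESeq2 called 5: Cd68, Trem2, Gpnmb, Lpl and Timd4. By the titles DESeq2 also called 5, with Marco in place of Lpl, and limma-voom called 0 in each reading. The whole list of 10 macrophage markers, none (0) of them at a count of 0, summed to 967 to 1270 CPM in the libraries titled flox and 761 to 1153 in those titled LKO. Cd5l and Clec4f had the highest means over the 6 libraries, though in flox 1 Lpl (283 CPM) and Gpnmb (192) exceeded Clec4f (136). The part of macrophage RNA in the Hilpda level was not tested.

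The upstream window of Hilpda is shown with ACGTG, a core of the hypoxia response element, in capitals (CACGT on the other strand), and that of Plin2 with the PPAR half-site in capitals, TGACCT being its reverse complement.
Hilpda, chr6:29272376-29272625, plus strand: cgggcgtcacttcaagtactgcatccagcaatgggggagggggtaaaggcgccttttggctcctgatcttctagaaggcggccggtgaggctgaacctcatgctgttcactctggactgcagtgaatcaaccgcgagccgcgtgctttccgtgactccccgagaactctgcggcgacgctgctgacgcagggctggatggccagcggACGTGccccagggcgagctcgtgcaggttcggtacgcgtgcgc
Plin2, chr4:86670060-86670309, minus strand: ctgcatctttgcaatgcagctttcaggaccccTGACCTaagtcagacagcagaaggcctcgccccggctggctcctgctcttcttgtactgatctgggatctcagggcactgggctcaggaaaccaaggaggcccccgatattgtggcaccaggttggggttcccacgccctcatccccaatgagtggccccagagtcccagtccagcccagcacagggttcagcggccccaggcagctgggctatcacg
ACGTG begins 43 bases before the start in this window of Hilpda, which has 2 windows in the table. The other Hilpda window, not shown, does not hold ACGTG, and 16.6% of all windows hold it on either strand. ACGTG was in a window of 1 of the 9 members searched, which have 12 windows, with Cidea left out. AGGTCA was in a window of 2 members, Plin2 and Plin5, and 14.0% of all windows hold it. A member with 2 windows is counted once, so counts of members and shares of windows are unlike measures. In Plin2 the half-site begins 218 bases before the start.

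Counted over the 10 genes, 1 passed in the agreeing libraries and 0 in either other reading. All 10 passed the filter on low counts in every reading. In the agreeing libraries edgeR called 0.622% of 14625 genes, 0.492% lower and 0.13% higher, and of the 10 genes called Plin4, lower. The groups did not overlap for 4 lower genes (Plin2, Plin4, Cidec and Hilpda) and 2 higher ones (Cidea and Pnpla2), where 25.5% and 23.8% of all genes were separated in these directions and 49.3% in either, so that with 2 libraries a group such separation is common. An unadjusted p under 0.05 was found for 4 of the 10, against 16.6% of all genes. By the titles edgeR called 0.356% of 14310 genes, 0.3% lower and 0.0559% higher, and 0 of the 10. The groups were separated for 2 lower genes (Cidec and Hilpda) and 1 higher (Pnpla2), against 10.6% and 8.35% of all genes, and 3 of the 10 had an unadjusted p under 0.05, against 13.9%. DESeq2 called 1 of the 10 by the titles (Cidec) and limma-voom 0. Over all genes DESeq2 called 631 there and limma-voom 24, so the edgeR share does not apply to these calls. By the genotype field edgeR called 0.0% of 14310 genes, and 2 of the 10 (Plin4 and Cidea) had an unadjusted p under 0.05, against 8.85% of all genes. Plin4 alone was separated there, lower, against 6.81% of all genes, and 0 of the 10 were higher, against 7.63%. DESeq2 and limma-voom also called 0 of the 10 by the genotype field. The median log2 fold change of the 10 genes was -0.32 by the genotype field, -0.32 in the agreeing libraries and -0.19 by the titles, beside -0.01, 0.00 and 0.00 over all genes tested.

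**Figure D4:**
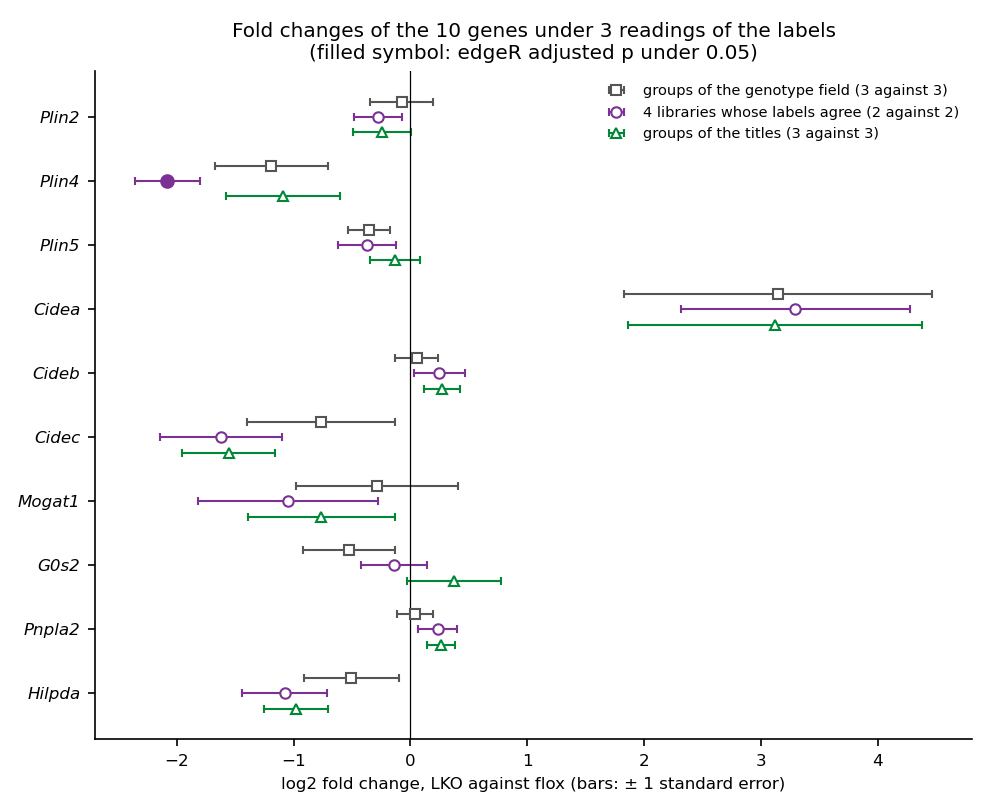
Log2 fold changes of LKO against flox for the 10 genes, with bars of 1 standard error, are shown for the groups of the genotype field (squares), the 4 libraries whose labels agree (circles) and the groups of the titles (triangles). The filled symbol, an edgeR adjusted p under 0.05, is that of Plin4 in the agreeing libraries at -2.08, and G0s2 changes sign between readings.

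The rest of the droplet pathway showed no gene past the threshold in any reading. Of 22 other droplet proteins, 22 were tested in the agreeing libraries and 0 passed in either direction, with 5 at an unadjusted p under 0.05, and a median log2 fold change of -0.03. Plin1 and Bscl2 had the lowest p. Bscl2, whose product seipin shapes new droplets at the endoplasmic reticulum, had a log2 fold change of 0.56 (standard error 0.13, edgeR adjusted p = 0.131). Plin1 was at 0 counts in flox 1 and flox 2 and at 26.1 and 3.23 CPM in LKO 2 and LKO 3, the libraries with fat transcripts, and is given no fold. Of 12 other lipolysis genes 0 passed, with 3 at an unadjusted p under 0.05 and a median of 0.17. Abhd5, the coactivator of the lipase, was at 27.6 and 26.6 CPM in flox 1 and flox 2 and 19.4 and 19.2 in LKO 2 and LKO 3, and did not pass (log2 fold change -0.48, standard error 0.13, edgeR adjusted p = 0.169). Flox 3 and LKO 1 had 22.3 and 29.7 CPM of Abhd5, as their titles would group them. Ddhd2, a triglyceride and phospholipid hydrolase, had a log2 fold change of -0.39 (standard error 0.13, edgeR adjusted p = 0.220). For Bscl2 and Ddhd2, unlike Abhd5, flox 3 and LKO 1 lay with their genotype field, with groups separated by that field and overlapping by the titles. In direction, Ddhd2 was lower in LKO like Abhd5, and Bscl2 was higher. Flox 3 and LKO 1 had 46.7 and 59.4 CPM of Bscl2, and 30.6 and 21.2 CPM of Ddhd2.

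Of 10 genes of triglyceride and cholesteryl ester synthesis 0 passed, with 0 at an unadjusted p under 0.05 and a median of 0.07. Lpin2, a phosphatidate phosphatase, and Mogat2, a relative of Mogat1, had log2 fold changes of -0.63 (standard error 0.28) and -1.34 (standard error 0.61), with edgeR adjusted p of 0.327 and 0.343. Mogat2 had only 20 and 19 counts in flox 1 and flox 2, and 10 and 4 in LKO 2 and LKO 3, so depth limits its fold change. Of 13 transcription factor genes with droplet gene targets 0 passed, with 3 at an unadjusted p under 0.05 and a median of 0.11. Pparg, the PPAR that drives droplet genes in fat and steatotic liver, was at 19.1 and 18.1 CPM in flox 1 and flox 2 and 12.5 and 13.4 in LKO 2 and LKO 3 (log2 fold change -0.52, standard error 0.16, edgeR adjusted p = 0.200). Flox 3 and LKO 1 had 15.7 and 19.5 CPM of Pparg. Mlxipl, which encodes the carbohydrate-response factor ChREBP, had a log2 fold change of 0.77 (standard error 0.21, edgeR adjusted p = 0.168). In these lists DESeq2 called Plin1 and Mlxipl in the agreeing libraries, Plin3 and Hsd17b13, a droplet-bound dehydrogenase gene, by the titles and 0 genes by the genotype field, and limma-voom called 0 in each reading. By the genotype field and by the titles edgeR called 0 genes of the 4 lists. There 4 and 9 of 56 genes tested had an unadjusted edgeR p under 0.05, against 8.85% and 13.9% of all genes. In the agreeing libraries 11 of 57 did, against 16.6%.

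The 10 genes did not share 1 pattern over the libraries. Likeness was taken as the root mean square difference of log2(CPM + 0.5) after centring each gene on its own mean, over the 6 libraries. The closest pair was Cideb and Pnpla2, at 0.09 log2 units, both nearly flat. Plin5 and Cideb (0.29) and Plin2 and Plin5 (0.32) followed. Plin4 was nearest to Mogat1 (0.72) and Plin5 (0.75) among the 10, and Cidec to Hilpda (0.73). For the 3 genes of widest range the nearest of 13420 genes with a mean of at least 1 CPM were named. For Plin4 these were Ctse (0.24), a cathepsin gene, and Gal3st1 (0.28), a sulfotransferase gene. For Cidec they were Serpina12 (0.24), which encodes the adipokine vaspin, and Cntnap1 (0.32). For Cidea they were Frmd5 (0.46) and Pnmt (0.47), the enzyme that makes adrenaline in the adrenal medulla, which had 6.86 CPM in LKO 2, 1.14 CPM in LKO 3 and 0 in the other 4. Frmd5 had 6.38 CPM in LKO 2, 0.887 in LKO 3 and 0.123 or less elsewhere. Both genes reached a mean of 1 CPM only through LKO 2, where Cidea was highest too. Their nearness to Cidea thus depends on that filter and is a description only.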

How the data were processed

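Poly(A) mRNA of 6 liver libraries was sequenced. The authors deposited a table of read counts per gene with FPKM values beside them. The submitters' processing notes name fastp, HISAT, StringTie, Cufflinks, featureCounts and the build GRCm39. For versions, roles, annotation and strandedness the sources used here give nothing. The deposited FPKM equal count over length and library total within 0.036% over 7260 genes. Counts were tested with edgeR 4.0.16 in R 4.3.3 (quasi-likelihood test, TMM factors, filterByExpr with a minimum count of 10 and total of 15, Benjamini-Hochberg threshold 0.05) over all genes that passed the filter. Hkdc1 stayed in each fit and out of the counts of calls. A standard error is the log2 fold change over the root of F. CPM use TMM factors over the 6 libraries, and levels of different genes are compared in FPKM. A floor of 3 counts, the approximate one-sided limit for a count of 0, is 0.156 to 0.194 CPM. Exact Poisson intervals (95%) are two-sided, so their upper bound for a count of 0 is higher, and they cover counting error only. Between pairs of libraries the chi-square per gene was 17.3 to 74.6, so no library was a repeat of another. DESeq2 1.42.0, limma 3.58.1 (voom, and log2(FPKM + 1) and log2(FPKM + 0.1)), other factors and filters, and leaving out each library were tried as alternatives. The scripts were tested on simulated data.

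The members and lists were chosen with earlier results of these data known. The lists hold 107 entries, 5 of them found by an older symbol. Named were the 10 members, of each of 4 pathway lists the 2 genes of lowest p in the agreeing libraries and every gene past the threshold, of each of 5 marker lists the 2 genes of highest CPM and any member, Hkdc1, and for the 3 members of widest range the 2 nearest genes. Other genes were named after their values were seen. Promoter windows come from RefSeq (GRCm38.p6). Cidea was left out of the search, and the other 9 members had 12 windows. None of the window coordinates were set beside those of the table.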

Additional observations from a re-analysis of the deposited data

How the results depend on the processing

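Over the 10 genes, 3 readings and all alternatives, 400 fold changes were recomputed, of which 369 kept their direction and side of the threshold, 5 lost the threshold (all Plin4 in the agreeing libraries), 6 gained it and 20 changed sign. By the genotype field edgeR called 0 genes and DESeq2 35, and log2(FPKM + 1) and log2(FPKM + 0.1) gave 1 each, while leaving out a library gave 0 each time. In the agreeing libraries the 91 genes called became 57 with upper-quartile factors, 1108 with no filter, 733 with DESeq2, 44 with limma-voom, and 0 (without flox 1) to 759 (without LKO 2) when a library was left out. The 1 member called there became 0 with upper-quartile factors, a filter at a mean of 1 CPM or limma-voom, 3 with no filter (Plin4, Cidea, Cidec), 2 with DESeq2 (Plin4, Cidea), and 0 to 2 when a library was left out. By the titles the 51 genes became 247 with no filter, 25 with a mean of 1 CPM, 631 with DESeq2, 24 with limma-voom, 30 with log2(FPKM + 1), and 0 (without flox 2) to 238 (without LKO 1) when a library was left out, and DESeq2 called 1 member. The cause was not tested. On the FPKM scales, which carry no TMM factor, the median of all genes moved to as low as -0.13 (agreeing libraries, + 0.1), and by the genotype field Cideb turned to -0.0124 and -0.0140 and Pnpla2 to -0.0235 and -0.0241. When a library was left out, log2 fold changes that turned ranged, by the genotype field, from -0.0854 to 0.165 for Cideb, -0.0840 to 0.168 for Pnpla2, -1.14 to 0.18 for Mogat1, -0.41 to 0.0905 for Plin2 and -0.81 to 0.0262 for G0s2. In the agreeing libraries they ranged from -1.78 to 0.41 for Mogat1 and -0.54 to 0.18 for G0s2, and by the titles from -0.29 to 0.0702 for Plin5 and -0.25 to 0.70 for G0s2. A lone library left in a group was taken to vary as those of the opposite group do. No paired analysis was possible because the labels give the groups no shared replicate numbers. Depth limits Mogat1, Cidea and Hilpda, with 14 to 68, 2 to 182 and 32 to 103 counts per library.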
